A study of Mus musculus with 12 samples.

Results

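MHC class I presentation places short peptides from a cell's own proteins on its surface for CD8+ T cells and NK cells to inspect. The 10 genes include the heavy chain H2-K1, its light chain B2m, the peptide transporter subunits Tap1 and Tap2 and the loading chaperone Tapbp. The others are the immunoproteasome subunits Psmb8, Psmb9 and Psmb10, the trimming peptidase Erap1 and Nlrc5, a transcriptional activator of class I genes. The list names genes of 1 function and was chosen with earlier results of these data known. All 10 were measured, among 22180 genes that have a probe set of a single gene symbol, and the brightest probe set per symbol over 12 arrays was used. H2-K1, Psmb9, Tap1, Psmb8, Tap2 and Tapbp lie on mouse chromosome 17, Nlrc5 and Psmb10 on chromosome 8, B2m on chromosome 2 and Erap1 on chromosome 13.

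The arrays held RNA of LSK cells, the Lin-Sca1+Kit+ fraction of bone marrow, sorted from C57BL/6 mice. The mice were Mll5+/+ (wild type) or Mll5-/- (mutant; the gene is now named Kmt2e) and came from matings of Mll5+/- parents. They drank water without (mock) or with 1 g per liter of N-acetyl-L-cysteine (NAC), a quencher of reactive oxygen species, which began at mating and lasted through gestation and life. Each of the 4 groups, wild-type mock, mutant mock, wild-type NAC and mutant NAC, had 3 arrays. Age, sex and the number of mice behind an array are not stated in the labels. Nothing says that replicates came from separate mice, and p-values then reflect the scatter of these arrays alone, which may be technical.

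In textbook terms, the immunoproteasome cuts cytosolic proteins, the Tap1-Tap2 transporter carries the peptides into the endoplasmic reticulum, Erap1 shortens them, and Tapbp holds an empty heavy chain with B2m next to the transporter until a peptide fits. Nearly all nucleated cells express these genes, and interferons raise them together, in part through Irf1 and through Nlrc5, which acts at a shared promoter module of class I genes. The series title names type I interferon signalling, so the comparisons bear on whether this interferon-responsive set differs between genotypes or with NAC.

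The promoter letters of the members are shown because these genes are known as a co-regulated set. RefSeq promoter windows of GRCm38.p6, from 250 bases before to 50 after a start, were found for 8 of the 10 genes; Tap2 and Nlrc5 have no entry in the table. Tap1 and Psmb9 are neighbours transcribed away from each other, so that 1 stretch of 225 bases between their starts serves both. It is printed in the Tap1 direction, with capitals for a CCAAT match (bases 4 to 8) and a TGACG match (bases 140 to 144).
Tap1-Psmb9, chr17:34187331-34187555, + strand: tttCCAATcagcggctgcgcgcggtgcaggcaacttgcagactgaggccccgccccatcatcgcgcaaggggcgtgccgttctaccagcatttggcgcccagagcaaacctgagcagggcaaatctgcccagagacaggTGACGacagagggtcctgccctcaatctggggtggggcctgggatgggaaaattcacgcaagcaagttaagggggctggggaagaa

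Short stretches around matches in other members follow, each in its gene's direction with the match in capitals. The letters searched on both strands were GAAANNGAAA for the interferon-stimulated response core, TTCNNNGAA for the gamma-activated sequence, GGGNNTTCCC for a kappaB-like motif, CCAAT for the Y box and TGACG for the X2-like element of the class I module.
B2m, response core, chr2:122147540-122147565, + strand: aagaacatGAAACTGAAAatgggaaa
Erap1, response core, chr13:74639841-74639866, + strand: accttcacTTTCACTTTCggtcccgg
Psmb8, gamma-activated sequence, chr17:34198090-34198114, + strand: ctccgctgTTCCCAGAAgatgcccc
H2-K1, kappaB-like motif, chr17:34000441-34000466, - strand: ccagggctGGGGATTCCCcatctcca
H2-K1, X2-like element, chr17:34000376-34000396, - strand: gacactgtTGACGcgcagtca
B2m, X2-like element, chr2:122147601-122147621, + strand: gagactggTGACGacctccgg

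The response core was found in 2 of 8 members (B2m and Erap1) and in 3.44% of all 32851 promoter windows. The gamma-activated sequence was found in 1 of 8 (Psmb8) against 8.3% of windows, and the kappaB-like motif in 1 of 8 (H2-K1) against 1.75%. CCAAT on either strand was found in 5 of 8 members against 37.4% of windows, and TGACG in 4 of 8 (H2-K1, B2m, Tap1 and Psmb9) against 20.8%. For both motifs the matches of Tap1 and Psmb9 are the same place in the stretch they share, so that counted once they give 4 of 7 for CCAAT and 3 of 7 for TGACG. These are matches of letters and not binding sites.

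The deposited values are log2 signals. The median signal per array lay between 2.89 and 2.96, and arrays correlated at 0.976 to 0.988 across genes. The mean signal of all 10 members lay above the median gene level of 3.17. The lowest limma array weights were 0.54 for mutant NAC replicate 1 and 0.71 for wild-type mock replicate 1, which stood apart from the rest. Kmt2e had a log2 difference of -0.34 between mutant and wild type over both treatments (SE 0.12, adjusted p = 0.419, limma). Which part of the gene its probe set reads is not stated, so this value does not check the genotype labels. Of the LSK markers, 8 of 9 were measured and 7 or 8 of them lay above the median gene level in each group, while none of 5 measured T cell markers did. Of the other lists, all 3 measured erythroid markers did, 3 or 4 of 5 for B and plasma cells and 4 of 8 for granulocytes. For dendritic cells and macrophages it was 4 or 5 of 7, for NK cells 1 of 4 and for endothelial cells 1 of 3. These counts do not measure how pure the sort was.

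None of the 10 members passed limma's test in any of 7 comparisons at an adjusted p under 0.05, and 0 to 2 genes passed among all 22180. In mock cells, 8 of the 10 were higher in the mutant and 2 lower, with a median log2 difference of 0.05 (all genes: 0.00). With NAC, 4 were higher and 6 lower in the mutant, with a median of -0.17 (all genes: 0.01). NAC against mock in the mutant gave lower values for all 10, with a median of -0.16 (all genes: 0.00), and in wild type lower values for 7, with a median of -0.05. These counts shift with single arrays: with 1 array left out, 6 to 8 members were higher in the mutant in mock, 2 to 5 were higher in it in NAC, and 9 or 10 were lower for NAC in the mutant. There Tap2 gave 0.03 without mutant NAC replicate 1 and B2m 0.02 without mutant mock replicate 1. Differences of the members ran from -0.45 to 0.27 across these 4 comparisons. No 95% interval reached beyond -0.81 or 0.60, so that a larger difference lay outside the interval of every member in each. These intervals are not adjusted for the number of genes.

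**Figure D1:**
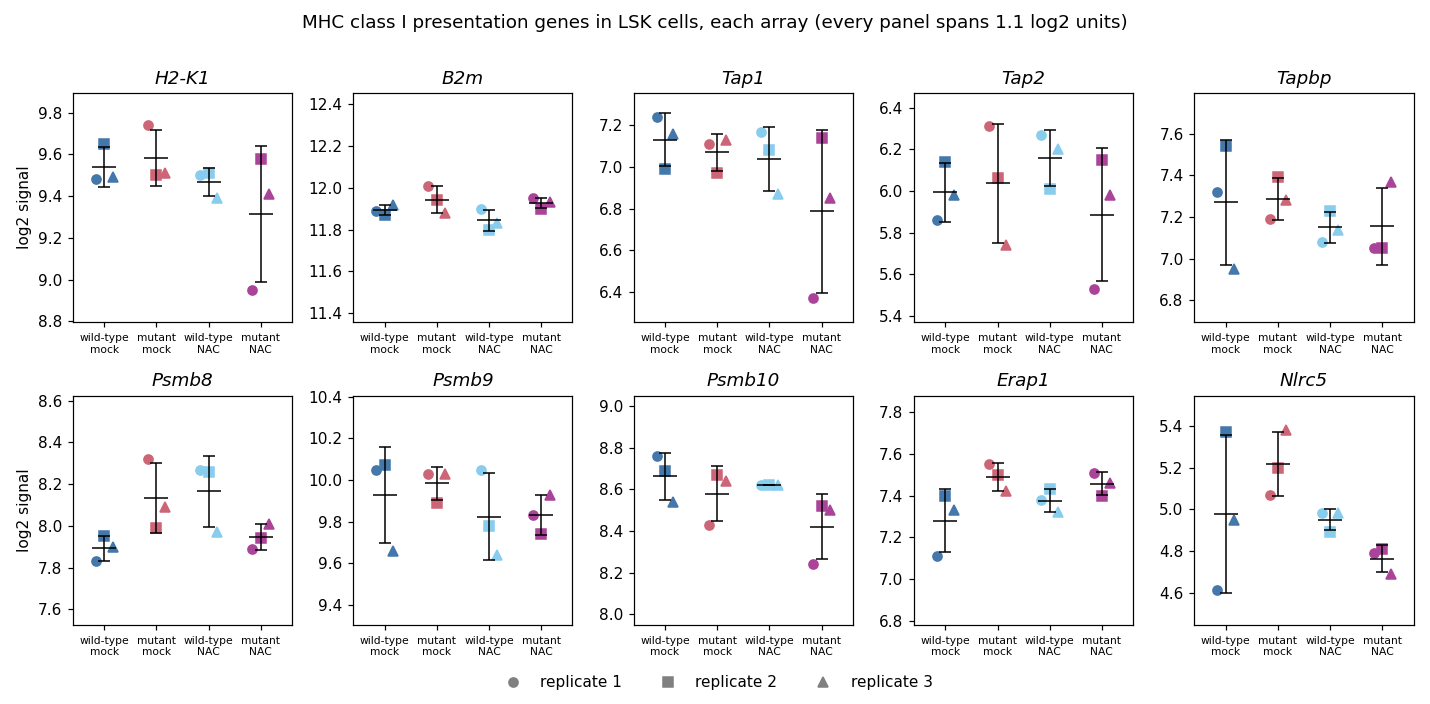
Log2 signal of each of the 10 genes (y axis, one panel per gene, each spanning the same number of log2 units) in the 4 groups (x axis). Points are arrays with a marker shape per replicate number, and bars show the mean and SD of 3 arrays. Groups overlap for most genes, Psmb8 is lowest in wild-type mock and Nlrc5 lowest in mutant NAC.

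The share of all genes called gives the background for a count of 0 of 10 members. At an adjusted p under 0.05 it was 0.00902% between genotypes in mock, 0% between genotypes in NAC and 0.00902% between genotypes over both treatments. It was 0.00451% for NAC in the mutant, 0.00902% for NAC in wild type, 0.00451% for NAC over both genotypes and 0% for the interaction of genotype and NAC. With so few calls anywhere, a count of 0 members is near the background. At an unadjusted p under 0.05, 1 member passed for NAC in the mutant (Nlrc5) and 1 for the interaction (Psmb8), where 5.86% and 4.21% of all genes did. No member reached it in the other 5 comparisons.

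The surface molecule consists of a light and a heavy chain. B2m, the light chain shared by all classical class I molecules, gave 11.89, 11.87 and 11.92 in wild-type mock and 12.01, 11.94 and 11.88 in mutant mock. NAC arrays gave 11.90, 11.80 and 11.83 in wild type and 11.95, 11.90 and 11.93 in the mutant. All 12 arrays thus lay within 0.21 on the log2 scale. The genotypes overlapped in mock, and in NAC they met only at a shared value of 11.90. The log2 difference between genotypes over both treatments was 0.07 (SE 0.07, 95% interval -0.09 to 0.22, adjusted p = 0.819, limma). Of the genes above the median level, 0.1% had a smaller SD within groups than B2m, whose SD was 0.045. The SE and interval above are wider than that SD alone would give, because limma draws each gene's variance toward that of the other genes.

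H2-K1, the classical heavy chain that presents peptide at the cell surface, gave 9.48, 9.65 and 9.49 in wild-type mock and 9.74, 9.50 and 9.51 in mutant mock. Under NAC the values were 9.50, 9.51 and 9.39 in wild type and 8.95, 9.58 and 9.41 in the mutant. The array at 8.95, mutant NAC replicate 1, was the lowest of the 12, while the other 2 of its group lay among the wild-type values. By limma, the mutant differed from wild type by a log2 difference of 0.04 in mock (SE 0.15, adjusted p = 0.978) and of -0.15 in NAC (SE 0.15, 95% interval -0.49 to 0.18, adjusted p = 0.877). Without mutant NAC replicate 1 the difference in NAC was 0.03. Class I heavy chains are close copies of each other, so the H2-K1 probe set may also read other heavy chains.

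The immunoproteasome subunits replace standard catalytic subunits of the proteasome and alter which peptides are cut. Psmb8 gave 7.83, 7.95 and 7.90 in wild-type mock and 8.32, 7.99 and 8.09 in mutant mock. Every mutant mock array lay above every wild-type mock array. NAC arrays gave 8.27, 8.26 and 7.97 in wild type and 7.89, 7.94 and 8.01 in the mutant, where the groups overlapped. Both wild-type NAC and mutant mock were thus the higher groups, at 8.17 ± 0.17 (SD, n = 3) and 8.13 ± 0.17, and mutant NAC (7.95 ± 0.06) and wild-type mock (7.89 ± 0.06) the lower.

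The higher 2 groups differed from each other by less than their SD, and so did the lower 2, and no Psmb8 comparison passed limma's test. Mutant minus wild type was 0.24 in mock on the log2 scale (SE 0.13, 95% interval -0.04 to 0.52, adjusted p = 0.799) and -0.22 in NAC (SE 0.13, 95% interval -0.50 to 0.06, adjusted p = 0.761). NAC against mock gave 0.27 in wild type (SE 0.13, adjusted p = 0.848) and -0.19 in the mutant (SE 0.13, adjusted p = 0.912). The difference between the genotype effects in NAC and in mock, tested as an interaction, was -0.46 (SE 0.18, 95% interval -0.85 to -0.07). Its unadjusted p was 0.0243 and its adjusted p 0.999 by limma, so it did not pass over all genes. Leaving out each array in turn gave -0.56 to -0.37 for the interaction. Without mutant mock replicate 1, the highest array, Psmb8 differed by 0.15 between genotypes in mock and by -0.09 for NAC in the mutant.

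Psmb9, the neighbour of Tap1, ranged from 9.64 to 10.07 over the 12 arrays, and its groups overlapped in all 4 comparisons of groups of 3. Its log2 differences lay between -0.15 (NAC in the mutant, SE 0.15) and 0.06 (genotype in mock, SE 0.15). Psmb10, the subunit encoded outside the MHC region, gave 8.76, 8.69 and 8.54 in wild-type mock and 8.43, 8.67 and 8.64 in mutant mock. With NAC it gave 8.62 in all 3 wild-type arrays, at the 2 decimals deposited, and 8.24, 8.52 and 8.50 in the mutant, so that the NAC groups did not overlap. The log2 difference in NAC was -0.20 (SE 0.12, 95% interval -0.47 to 0.07, adjusted p = 0.78, limma), and -0.11 without mutant NAC replicate 1.

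The transporter subunits and the loading chaperone bring peptide and class I molecule together. Tap1 gave 7.24, 6.99 and 7.16 in wild-type mock and 7.11, 6.97 and 7.13 in mutant mock. With NAC it gave 7.17, 7.08 and 6.87 in wild type and 6.37, 7.14 and 6.85 in the mutant. The value of 6.37 belonged to mutant NAC replicate 1 and was the lowest of all arrays. The mutant minus wild-type log2 difference was -0.06 in mock (SE 0.17, adjusted p = 0.975) and -0.25 in NAC (SE 0.17, 95% interval -0.63 to 0.12, adjusted p = 0.802) by limma. Without that array the difference in NAC was -0.05.

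Tap2 gave 5.86, 6.14 and 5.98 in wild-type mock and 6.31, 6.06 and 5.74 in mutant mock. NAC arrays gave 6.27, 6.01 and 6.20 in wild type and 5.53, 6.15 and 5.98 in the mutant. The genotypes overlapped in both treatments, and mutant NAC replicate 1 was again the lowest. Mutant minus wild type was 0.04 on the log2 scale in mock (SE 0.18, adjusted p = 0.983) and -0.27 in NAC (SE 0.18, 95% interval -0.66 to 0.12, adjusted p = 0.799) by limma. Without mutant NAC replicate 1 the Tap2 difference in NAC was -0.10, and without mutant mock replicate 1 that in mock was -0.09. Tapbp, which encodes tapasin, ranged from 6.95 to 7.54, with both ends in wild-type mock, and its differences between genotypes were 0.02 in mock (SE 0.15) and 0.01 in NAC (SE 0.15).

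Erap1 trims peptides to the length that fits the class I groove. It gave 7.11, 7.40 and 7.33 in wild-type mock and 7.55, 7.50 and 7.42 in mutant mock, which did not overlap. Under NAC the values were 7.38, 7.43 and 7.32 in wild type and 7.51, 7.40 and 7.46 in the mutant, which overlapped. The log2 difference between genotypes was 0.21 in mock (SE 0.11, 95% interval -0.04 to 0.46, adjusted p = 0.802) and 0.15 over both treatments (SE 0.08, 95% interval -0.03 to 0.32, adjusted p = 0.618) by limma. The difference in mock was 0.13 without wild-type mock replicate 1, which held the lowest value.

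Nlrc5, a NOD-like receptor family protein that switches on class I genes, had the lowest adjusted p of the members for NAC in the mutant. It gave 5.07, 5.20 and 5.38 in mutant mock and 4.79, 4.81 and 4.69 in mutant NAC, and these groups did not overlap. Wild-type mock gave 4.61, 5.37 and 4.95, a wider spread that covered most of the other groups, and wild-type NAC gave 4.98, 4.89 and 4.98. The log2 difference for NAC in the mutant was -0.45 (SE 0.17, 95% interval -0.81 to -0.09), or 1.37-fold lower. Its unadjusted p was 0.0176, rank 479 of 22180 genes, and its adjusted p was 0.809 by limma.

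In wild type the Nlrc5 difference for NAC was -0.03 (SE 0.17, adjusted p = 0.989), and the difference between the NAC effects was -0.43 (SE 0.24, 95% interval -0.94 to 0.08, adjusted p = 0.999). Between genotypes Nlrc5 differed by 0.24 in mock (SE 0.17, adjusted p = 0.843) and by -0.19 in NAC (SE 0.17, adjusted p = 0.861). The wild-type mock spread weighed on these values: leaving out wild-type mock replicate 1 gave 0.06 for the difference in mock, and leaving out replicate 2 of that group gave 0.44. The value for NAC in the mutant stayed between -0.53 and -0.37 when each array was left out.

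**Figure D2:**
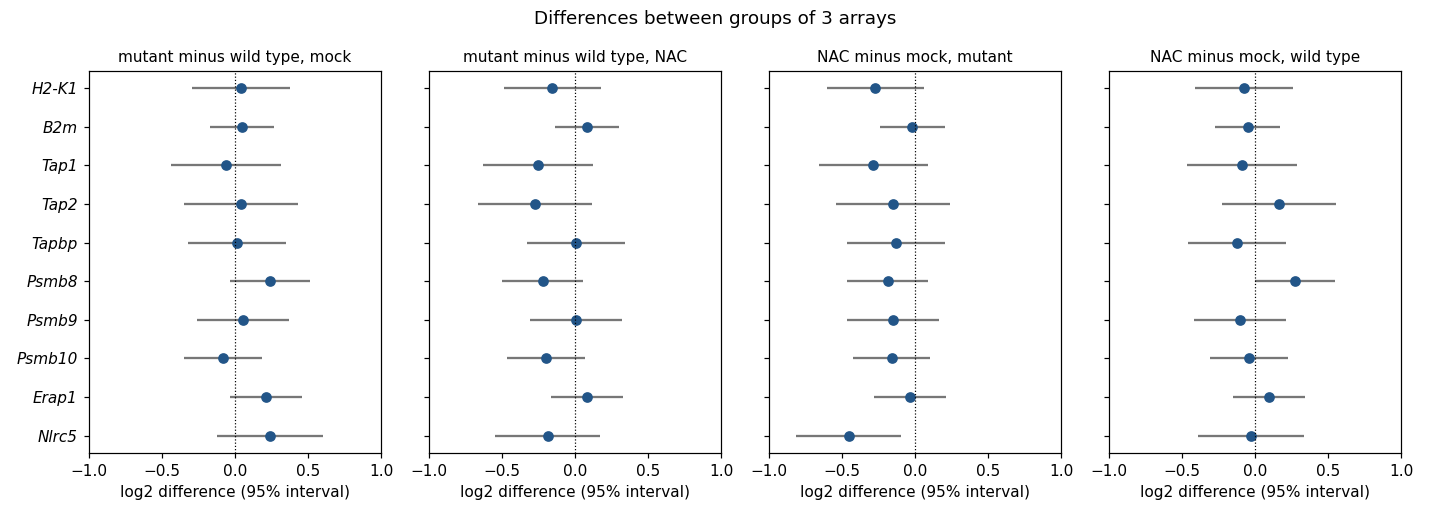
Log2 difference (x axis) with its 95% interval from limma for the 10 genes (y axis) in 4 comparisons of 3 against 3 arrays, one panel each; the dotted line marks no difference. The interval leaves out 0 for Nlrc5 under NAC in the mutant (-0.81 to -0.09) and includes it for the other members in each panel.

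Groups of 3 arrays that do not overlap are common on these arrays. Between genotypes in mock, 2 of 10 members (Psmb8 and Erap1) lay wholly higher in the mutant, where 5.94% of all genes did. Between genotypes in NAC, 2 of 10 (Psmb10 and Nlrc5) lay wholly lower in the mutant, where 6.05% of all genes did. For NAC in wild type, 1 of 10 (Psmb8) lay wholly higher against 5.42% of all genes, and for NAC in the mutant 1 of 10 (Nlrc5) lay wholly lower against 5.14%. These shares cover only the direction in which a member separated, known once the data were seen. They leave out genes that separated the other way. No member separated the 6 mutant from the 6 wild-type arrays, or the 6 NAC from the 6 mock arrays.

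The lower values of the mutant with NAC leaned on 1 array. Mutant NAC replicate 1 held the lowest value of the 12 for 4 members (H2-K1, Tap1, Tap2 and Psmb10), and its mean over the members was -0.24 relative to their means over all arrays, where the other 11 arrays lay between -0.06 and 0.13. Without it the median of the members for NAC in the mutant was -0.08 in place of -0.16, and that between genotypes in NAC -0.02 in place of -0.17. On the same array the mean of the 8 measured LSK markers, 6.82, was the lowest of the 12. Flt3, a cytokine receptor of early progenitors, gave 7.26 there against 7.96 to 9.35 elsewhere. Mutant NAC replicates 2 and 3 were the next lowest, at 7.13 and 7.14, close to wild-type NAC replicate 3 at 7.15. Mutant mock gave 7.32 to 7.49. Without Flt3, left out after the data were seen, mutant NAC gave 6.76 to 7.007 and wild-type NAC 6.927 to 6.997, which overlap. The place of replicates 2 and 3 below the wild-type arrays thus rests on Flt3. Mutant mock, at 7.176 to 7.301 without Flt3, stayed above mutant NAC. The part of the LSK markers in the members' values was not tested. Mutant mock replicate 1 held the highest value of 5 members (H2-K1, B2m, Tap2, Psmb8 and Erap1).

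**Figure D3:**
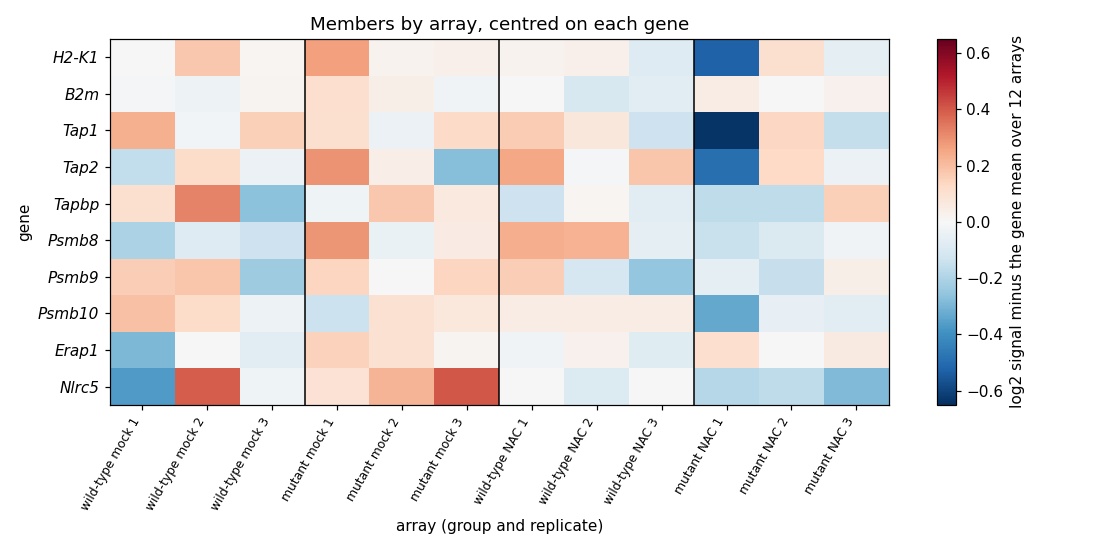
Log2 signal minus the gene's mean over 12 arrays (colour scale) for the 10 genes (rows) on each array (columns, in groups of 3). Mutant NAC replicate 1 is the bluest column, with a mean over the members of -0.24, and B2m is the palest row.

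After each gene's group means were subtracted, the 45 pairs of members had a median Pearson r of 0.15 over 12 arrays, from -0.59 to 0.83, and 32 were above 0. H2-K1 and Tap2 had the highest r, 0.83 (Spearman rho 0.76). It was 0.74 without mutant NAC replicate 1 and 0.67 without the 2 arrays farthest from the median of H2-K1. H2-K1 and Tap1 had an r of 0.78 (rho 0.54), which was 0.56 without mutant NAC replicate 1 and 0.13 without the 2 farthest arrays. The size of this r depends on those arrays, though leaving out the ends of a gene's range can by itself lower r. Tap1 and Psmb9, which share the stretch printed above, had an r of 0.11 (rho 0.34), and of 0.44 without the 2 arrays farthest from the median of Tap1. The pairs of Nlrc5 ran from an r of -0.34 with B2m to 0.53 with Erap1. The rank correlation of Nlrc5 and Erap1 was -0.03, and their r was -0.73 without the 2 arrays farthest from the median of Erap1, so it rests on those arrays. The lowest r, -0.59, was that of B2m and Psmb10. These values describe 12 arrays that share their normalisation.

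**Figure D4:**
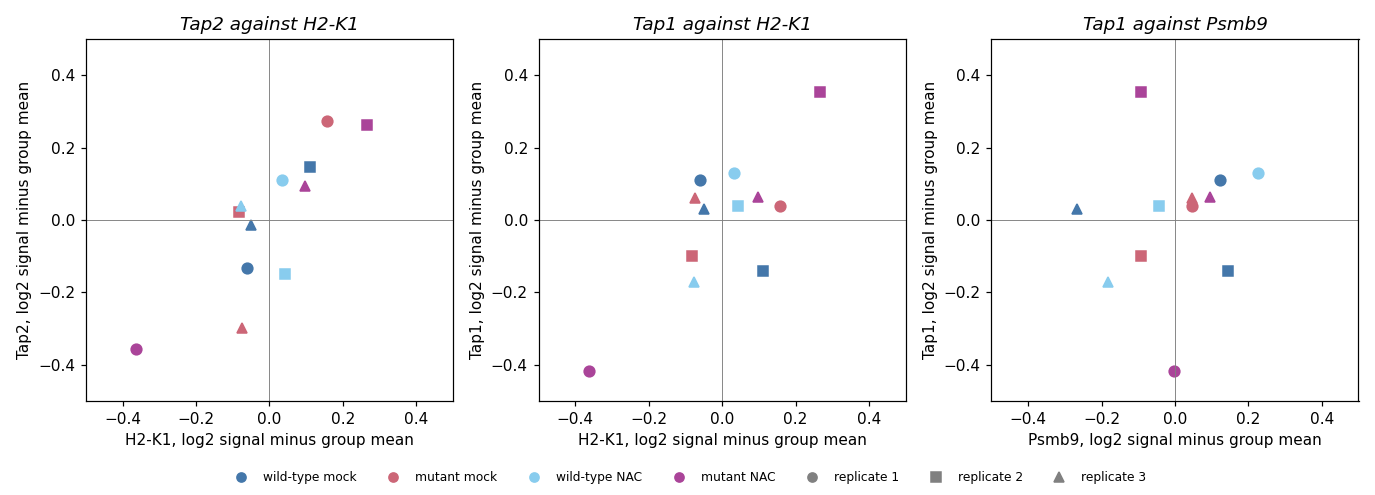
Deviation of an array from its group mean (log2) for Tap2 against H2-K1, Tap1 against H2-K1 and Tap1 against Psmb9; colours are groups and marker shapes replicate numbers. The first pair lines up (r = 0.83) and the second leans on the lowest array (r = 0.78). The divergent neighbours Tap1 and Psmb9 had an r of 0.11, and of 0.44 without the 2 arrays farthest from the median of Tap1.

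The genes outside the set whose 12 values followed the mean of the centred members most closely were Atg7 (r = 0.95), Mta1 (0.92), Gnaq (0.92), Ptpn7 (0.91) and Galnt4 (0.91). With group means subtracted they were Slc2a4rg-ps (0.97), Hcfc1 (0.95), Cit (0.95), Mindy4 (0.95) and Psmc1 (0.93), a base subunit of the proteasome. Without mutant NAC replicate 1 these 10 values were 0.78 to 0.95. They were picked as the highest values among 22180 genes over only 12 arrays.

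Other genes of the pathway were counted from lists chosen by function with earlier results of these data known. Of 84 such genes 71 were measured, and the others were not analysed here. None of the 71 passed limma's test in any comparison, while 4 to 9 had an unadjusted p under 0.05. The share was highest for NAC over both genotypes, 9 of the 71 or 12.7%, where 7.43% of all genes had such a p, and it was 8.45% against 5.92% for NAC in wild type. It was 5.63% against 6.63% between genotypes in mock, 7.04% against 7.17% in NAC and 5.63% against 9.08% over both treatments. For NAC in the mutant it was 5.63% against 5.86%, and for the interaction 7.04% against 4.21%. The median log2 difference of the 71 was 0.06 in mock and 0.03 in NAC between genotypes, and -0.04 for NAC in the mutant. The named genes below rest on few arrays: of 56 differences named by the rule in 4 comparisons, 34 moved by over 1.5 times when some single array was left out, and 8 did so without mutant NAC replicate 1.

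Among the peptide-loading and folding genes, 10 were measured. Tapbpl, a relative of tapasin that edits peptides on class I molecules, had a log2 difference between genotypes of 0.37 in mock (SE 0.14, adjusted p = 0.702) and -0.29 in NAC (SE 0.14, adjusted p = 0.715), the same order of signs as Psmb8 and Nlrc5. For NAC in the mutant it was -0.42 (SE 0.14, adjusted p = 0.779), and its interaction was -0.67 (SE 0.20, unadjusted p = 0.00607, adjusted p = 0.999) by limma. Sec61g, a subunit of the channel into the endoplasmic reticulum, had a genotype difference of 0.36 in NAC (SE 0.13), and Bcap31, a sorting factor of that membrane, 0.28 (SE 0.12). Sec61b had 0.27 in mock (SE 0.19).

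Of 12 measured further heavy chains and class I-like genes, 8 were higher and 4 lower in the mutant in mock (median 0.07). In NAC the counts were the same (median 0.17), but not the genes. H2-Q4, H2-T24 and H2-M3 were higher in mock and lower in NAC, and H2-T23, H2-M2 and Cd1d1 the reverse. Fcgrt, the class I-like receptor that recycles antibody, had a difference of 0.43 in mock (SE 0.28). The class Ib gene H2-T24 had 0.36 in mock (SE 0.25) and -0.19 in NAC (SE 0.25). H2-M3, also class Ib, had 0.20 in mock (SE 0.14) and -0.27 in NAC (SE 0.14). H2-Q1 had 0.40 in NAC (SE 0.19) and 0.45 for NAC in the mutant (SE 0.19), at a mean signal of 2.81, below that of the median gene. Without mutant NAC replicate 1 these were 0.16 and 0.22 for H2-Q1, and the value in NAC was -0.15 for H2-M3. Of the 8 proteasome genes, activator and standard subunits, 7 were higher in the mutant in both treatments (medians 0.14 and 0.13). Among them Psme3, a nuclear activator, had 0.32 in mock (SE 0.18), Pomp, an assembly chaperone, 0.19 in mock (SE 0.15), Psme1, an interferon-inducible activator subunit, 0.20 in NAC (SE 0.12) and Psme4 -0.30 in NAC (SE 0.20). For NAC in the mutant the standard subunits Psmb5 and Psmb7 had 0.23 (SE 0.13) and 0.17 (SE 0.13).

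All 5 measured peptidases were higher in the mutant over both treatments, with a median of 0.13 and none past the test. Thop1, an oligopeptidase that destroys peptides in the cytosol, had 0.47 in mock (SE 0.22), and Tpp2, a large aminopeptidase complex, 0.34 (SE 0.16). Blmh, a cytosolic hydrolase, had 0.13 over both treatments (SE 0.08). In NAC the differences were 0.19 for Lap3, a leucine aminopeptidase (SE 0.20), and 0.14 for Npepps (SE 0.17), and for NAC in the mutant 0.31 and 0.26 in the same order (SE 0.20 and 0.17).

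The regulators were split, with 7 of 13 measured higher in the mutant in mock and 5 in NAC. Irf1, an interferon-induced activator of class I genes, had differences of -0.20 in mock (SE 0.16), -0.34 in NAC (SE 0.16) and -0.27 over both treatments (SE 0.11, adjusted p = 0.498, limma). Ezh2, the Polycomb methyltransferase that can silence class I genes, had 0.33 in mock (SE 0.12) and 0.25 over both treatments (SE 0.08, adjusted p = 0.389). Nfyb, a subunit of the CCAAT-binding factor, had 0.31 in NAC (SE 0.18) and 0.43 for NAC in the mutant (SE 0.18), and Nfya 0.21 in mock (SE 0.14).

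Interferon receptors and type I interferon-stimulated genes gave 6 higher and 10 lower of 16 in mock, and 3 higher and 13 lower in NAC, with medians of -0.06 and -0.10. Ifnar1, a chain of the type I interferon receptor, had -0.33 in NAC (SE 0.14) and -0.23 over both treatments (SE 0.10, adjusted p = 0.519, limma). Ifit2, an interferon-induced RNA-binding protein, had 0.55 in mock (SE 0.22), Ifit3 -0.22 in mock (SE 0.16) and the antiviral enzyme Rsad2 -0.36 in NAC (SE 0.24). For NAC in the mutant the ubiquitin-like Isg15 had -0.32 (SE 0.20) and the GTPase Mx2 0.45 (SE 0.18). Mx2 had a mean signal of 2.57, below that of the median gene, and gave 0.37 (SE 0.18) for NAC in wild type.

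Of the genes known to respond to interferon gamma, 7 were measured. Ciita, the class II counterpart of Nlrc5, had a genotype difference of 0.43 in mock (SE 0.12, unadjusted p = 0.00313, adjusted p = 0.535), -0.09 in NAC (SE 0.12) and an interaction of -0.52 (SE 0.17, adjusted p = 0.999) by limma. Gbp7, a GTPase of cell defence, had the opposite order, -0.06 in mock (SE 0.18) and 0.61 in NAC (SE 0.18, adjusted p = 0.56). Socs1, a brake on interferon signals, had -0.49 in NAC (SE 0.20), Cd274, the checkpoint ligand, -0.26 in mock (SE 0.24) and Irgm1, a defence GTPase, -0.29 for NAC in the mutant (SE 0.17). Without mutant NAC replicate 1 the difference of Socs1 was -0.24, and without mutant mock replicate 2 that of Cd274 was 0.01.

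Marker lists of other cells, which also express class I genes, stood at different levels in some groups. The mean log2 signal of 5 measured B and plasma cell markers was 4.28 to 4.44 in wild-type mock and 3.56 to 3.65 in mutant mock, and 4.46 to 4.86 and 4.02 to 4.16 with NAC. Its widest marker was Jchain, a chain of secreted antibodies, from 2.36 to 8.21. Without Jchain, a choice made after the data were seen, the other 4 gave 3.92 to 4.13 in wild-type mock and 3.71 to 3.94 in mutant mock, and 3.98 to 4.08 and 3.66 to 4.29 with NAC, which overlap, so the separation rests on Jchain. Dendritic cell and macrophage markers gave 4.06 to 4.64 in wild-type mock and 3.81 to 4.12 in mutant mock. With NAC they gave 4.38 to 4.64 in wild type and 3.95 to 4.31 in the mutant, and H2-Aa, a class II chain, ranged over 2.07. Without H2-Aa the NAC groups overlapped, at 4.12 to 4.45 in wild type and 3.94 to 4.26 in the mutant, so their separation rests on H2-Aa. Granulocyte markers gave 5.60 to 6.06, 4.78 to 5.59, 5.96 to 6.11 and 5.46 to 5.94 in the same order of groups, with S100a8 ranging over 3.51. Without S100a8, also left out after the data were seen, the mock groups overlapped, at 5.12 to 5.58 in wild type and 4.56 to 5.15 in the mutant. With NAC they gave 5.48 to 5.57 and 5.01 to 5.42, which did not overlap. Ltf, Camp, Ngp and Ly6g lay below the median gene level, and the markers above it were S100a8, S100a9, Elane and Mpo.

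LSK markers gave 7.20 to 7.64, 7.32 to 7.49, 7.15 to 7.20 and 6.82 to 7.14 in that order. Without Flt3, their widest marker, the NAC groups overlapped, so that separation rests on Flt3. The widest markers of the T cell, NK cell, erythroid and endothelial lists were Cd4, Nkg7, Klf1 and Pecam1, with ranges of 1.26, 1.09, 1.25 and 0.64, and in these 4 lists the group ranges overlapped between genotypes in mock. In sorted bulk samples, fewer cells of a type and less RNA per cell cannot be told apart. The part of these markers in the members' values was not tested.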

How the data were processed

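The authors deposited log2 signals of 12 arrays. Per the submitters' processing notes they used RMA, which subtracts background, equalises the arrays' quantiles and gives 1 value per probe set, and Affymetrix Power Tools, in versions not named there. That the scale is log2 was inferred from values of 0.74 to 13.23. Among 41345 probe sets, 23521 carried a single symbol. By Entrez ID 23328 were found in the reference table (GRCm38.p6), which changed 0 symbols. The array annotation names no genome build, so only promoter sequences carry coordinates.

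With limma 3.58.1 (lmFit, eBayes; R 4.3.3) group means were fitted to 22180 genes over the 12 arrays, dim genes included. Benjamini-Hochberg adjustment ran over all genes in each of 7 comparisons, at 0.05. The members and lists were chosen with earlier results of these data known, so lists get counts and medians only. Named besides the members were, per list, the 2 smallest p in each of 4 comparisons (both genotype comparisons, genotype over both treatments, NAC in the mutant). Also named were the widest marker per list and the 5 genes most like the members by Pearson r, clone-named genes left out. Ciita, Tapbpl, Irf1, Gbp7, H2-T24, H2-M3 and Mx2 are also given in further comparisons. H2-Q4, H2-T23, H2-M2, Cd1d1 and the other granulocyte markers are named outside this rule.

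Same-numbered arrays correlated at -0.06 to 0.06 in their deviations from group means, so the main fit did not pair them by number. Such values cannot exclude a pairing that affects few genes, and the labels give none. Tested on 3 simulations of the mock comparison of 22180 genes with 200 changed, the fit found 20.7% of changes of 0.5, 65.3% of 1, 92% of 1.5 and 98% of 2 on the log2 scale. With 200 changed genes the adjustment is less strict than in the data, where 2 genes passed in mock. These shares can therefore be too high for a single changed gene. Alternatives are in the closing section. Figures used matplotlib 3.10.9 in Python 3.11.15. The number of arrays limits the precision.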

Additional observations from a re-analysis of the deposited data

How the results depend on the processing

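No member passed limma's test in any comparison under any alternative run: a filter that kept the brighter genes, array weights, arrays centred on their medians, another round of quantile normalization, a robust variance trend, probe sets averaged per symbol, the replicate block, a fit of the compared groups alone (where a comparison uses 2 groups), an adjusted p under 0.10, and leaving out each array. Leaving out both arrays that stand apart was added after the data were seen. The lowest adjusted p of a member was 0.357, for Nlrc5 under NAC over both genotypes without wild-type mock replicate 1. As no member passed, no direction was called; of 1510 alternative values 71 had the other sign, at most for differences of 0.20 in size. The medians moved beyond the spread of arrays (0.09) between genotypes in NAC, to -0.017 without both arrays and -0.21 to -0.017 with 1 array left out, and for the interaction, from -0.16 to -0.072 and to -0.25 to -0.036.

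Counts over all genes, 0 to 2, are too small to be stable. Between genotypes in mock the count was 1 with the replicate block or only the compared groups, 0 without both arrays and 1 to 4 with 1 array left out. In NAC it was 2 with the filter or at 0.10, 4 with array weights, 1 with only the compared groups and 0 to 3 with 1 array left out. Over both treatments it was 4 with array weights or without both arrays, 1 with the replicate block, 12 at 0.10 and 1 to 7 with 1 array left out. For NAC in the mutant it was 2 with array weights or quantile normalization, 3 at 0.10, 0 without both arrays and 0 to 2 with 1 left out. For NAC in wild type it was 1 with only the compared groups and 1 to 5 with 1 left out, for NAC over both genotypes 3 without both arrays and 1 to 4, and for the interaction 0 to 2.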

Other observations

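Tapbp has a second probe set of its own and one shared with its neighbour Zbtb22. The second gave log2 signals of 4.42 ± 0.18 (SD, n = 3) in wild-type mock, 4.60 ± 0.09 in mutant mock, 4.65 ± 0.30 in wild-type NAC and 4.43 ± 0.28 in mutant NAC. The shared one gave 5.57 ± 0.19, 5.67 ± 0.01, 5.43 ± 0.06 and 5.58 ± 0.15 in the same order. With the mean of its own probe sets the genotype difference of Tapbp in NAC was -0.11 on the log2 scale, in place of 0.01 for the brightest.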
